A study of Mus musculus with 12 samples.

Results

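The genes described here encode the proteins of the cytosolic ribosome, taken as the protein-coding mouse genes whose symbol begins with Rpl or Rps followed by a number, together with Rpsa, Rplp0, Rplp1 and Rplp2. The Rps6k kinases, Rps19bp1 and pseudogenes were left out. The rule found 84 of the 30803 genes of the table that holds the WT and GSH libraries, and 85 of the 17558 genes of the table that holds the Ctrl and Cas9 libraries. The extra gene of the second table was Rps23rg1, a retrogene listed at 0 in Ctrl 3 and at no more than 0.0712 FPKM in the Cas9 libraries. With a mean of at least 1 FPKM (a count of read fragments for each kilobase of a gene, relative to library size) over the libraries compared, 82 genes were tested in each table. Rpl3l and Rpl39l were too low in both tables.

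The samples are labelled as 4T1, a mammary carcinoma line from a BALB/c mouse, grown in DMEM with fetal serum and given no treatment beyond culture in any group. The labels name 4 genotypes with 3 samples each: WT, GSH, Ctrl and Cas9. They neither expand GSH nor name a gene targeted with Cas9, nor a clone or promoter, so no targeted gene could be read out as a check of the labels. The libraries used were WT 1 to 3, GSH 1 to 3, Ctrl 3 and Cas9 1 to 3, while 2 described samples, Ctrl 1 and Ctrl 2, are not analysed here.

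The cytosolic ribosome joins a small 40S subunit, which reads the messenger RNA, to a large 60S subunit, which forms the peptide bond. Its proteins are needed in near equal amounts and their messenger RNAs are among the most abundant of a growing cell. These messages begin with a C followed by an unbroken run of pyrimidines (the 5′ terminal oligopyrimidine tract, or TOP), through which mTORC1 and LARP1 set their translation and stability. Mammalian genomes also carry very many processed copies of these genes, and reads from the genes and the copies are hard to tell apart.

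Epcam and the keratins Krt8 and Krt18, which mark carcinoma epithelium, were present in all 10 libraries. The WT and GSH libraries nearly lacked leukocyte transcripts, with 0.0174 to 0.0407 FPKM of Ptprc, the pan-leukocyte marker CD45, and a sum of 24.0 to 34.5 FPKM over the 21 leukocyte genes measured. The Ctrl and Cas9 libraries, labelled as the same cultured line, held 15.9 to 21.1 FPKM of Ptprc and a sum of 2233 to 4028 FPKM over 20 leukocyte genes. They thus go against a label of carcinoma cells alone. The tables were normalised separately, so tests were made only within each. Depth, counted as whole reads that could be recovered, came to 18051913 to 29401131 in the WT and GSH libraries and to 30866854 to 36520498 in the others.

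The pyrimidine tract that the genes share was looked for at the annotated start in the RefSeq promoter table (GRCm38.p6), which lists 64 of the 84 genes. A C at the start followed by at least 4 bases that are each C or T, on the coding strand, was found for 14 of the 64 (21.9%), against 3.01% of the 27025 genes of that table. RefSeq starts are not always the start used in a cell, so a missing match says only that these letters are not at that position. The 7 sequences below show what such a start looks like in genes that were higher in GSH libraries (Rpl14, Rpl15, Rpl28 and Rps6), lower (Rps10) or not called (Rpl38 and Rplp2). Each runs from 10 bases before the start to 20 bases from it, with the tract in capitals.
Rpl14 (chr9:120571507-120571536, plus strand): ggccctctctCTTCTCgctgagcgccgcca
Rpl15 (chr14:18270967-18270996, minus strand): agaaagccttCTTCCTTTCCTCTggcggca
Rpl28 (chr7:4792955-4792984, plus strand): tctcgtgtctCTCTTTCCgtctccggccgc
Rps6 (chr4:86857348-86857377, minus strand): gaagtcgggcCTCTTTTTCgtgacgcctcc
Rps10 (chr17:27635225-27635254, minus strand): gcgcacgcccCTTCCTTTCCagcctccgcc
Rpl38 (chr11:114668570-114668599, plus strand): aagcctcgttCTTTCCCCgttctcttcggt
Rplp2 (chr7:141447641-141447670, plus strand): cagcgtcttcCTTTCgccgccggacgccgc

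Among the 14 genes with that start, 4 were called higher and 1 lower in GSH libraries (against 20.6% and 16.4% of all tested genes), with a median log2 difference of 0.13, and among the 48 tested genes listed without it 22 were higher and 2 lower, with a median of 0.19. The letters CTTCCG, on either strand, stood in the 300 bases around the start of 43 of the 64 genes (67.2%), against 18.8% of all genes in the promoter table. Such a match is a description of the letters and not of a bound factor.

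The first comparison, GSH against WT, asks how the genes differ between these genotypes. Ribosomal protein messages were mostly higher in GSH libraries, by small amounts. By limma with Benjamini-Hochberg adjustment over all genes, 34 of the 82 tested genes rose (41.5%, against 20.6% of the 12283 genes tested) and 3 fell (3.66%, against 16.4%). The other 45 did not pass the threshold, which 37.0% of all genes passed in either direction. The median log2 difference of the 82 was 0.18, against 0.021 over all tested genes. Above 0 lay 72 of the 82, against 54.1% of all tested genes. Every GSH library was above every WT library for 49 of the 82 genes, against 29.0% of all tested genes, and every GSH library was below for 3, against 23.5%.

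The rise was shared by the subunits. Of 49 tested genes of the 60S subunit 21 rose and 2 fell, with a median log2 difference of 0.19, and of 33 genes of the 40S subunit 13 rose and 1 fell, with a median of 0.17. The genes together took 3.33%, 3.16% and 3.55% of recovered reads in WT 1 to 3 and 3.95%, 3.96% and 3.82% in GSH 1 to 3. The 3 GSH libraries are all above the 3 WT libraries. Over the same libraries the mitochondrially encoded transcripts went the other way, at 8.38% to 8.70% in WT and 5.88% to 6.26% in GSH libraries, and their part in the difference was not tested. When every library was rescaled without the mitochondrial genes, 29 of the genes rose and 3 fell, and their median log2 difference was 0.11, while the median of all genes moved from 0.021 to -0.033. Over all genes that rescaling called 1446 higher, against 2533 as deposited. Higher calls made up 34.1% of calls there, 55.7% as deposited, 47.9% after trimmed mean scaling and 73.7% after rescaling without the ribosomal protein genes. After the last of these the median was 0.24 for the ribosomal protein genes and 0.07 for all genes, so both medians moved in the same direction under each rescaling. The ribosomal protein genes' median was above 0 under each of these scalings.

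**Figure D1:**
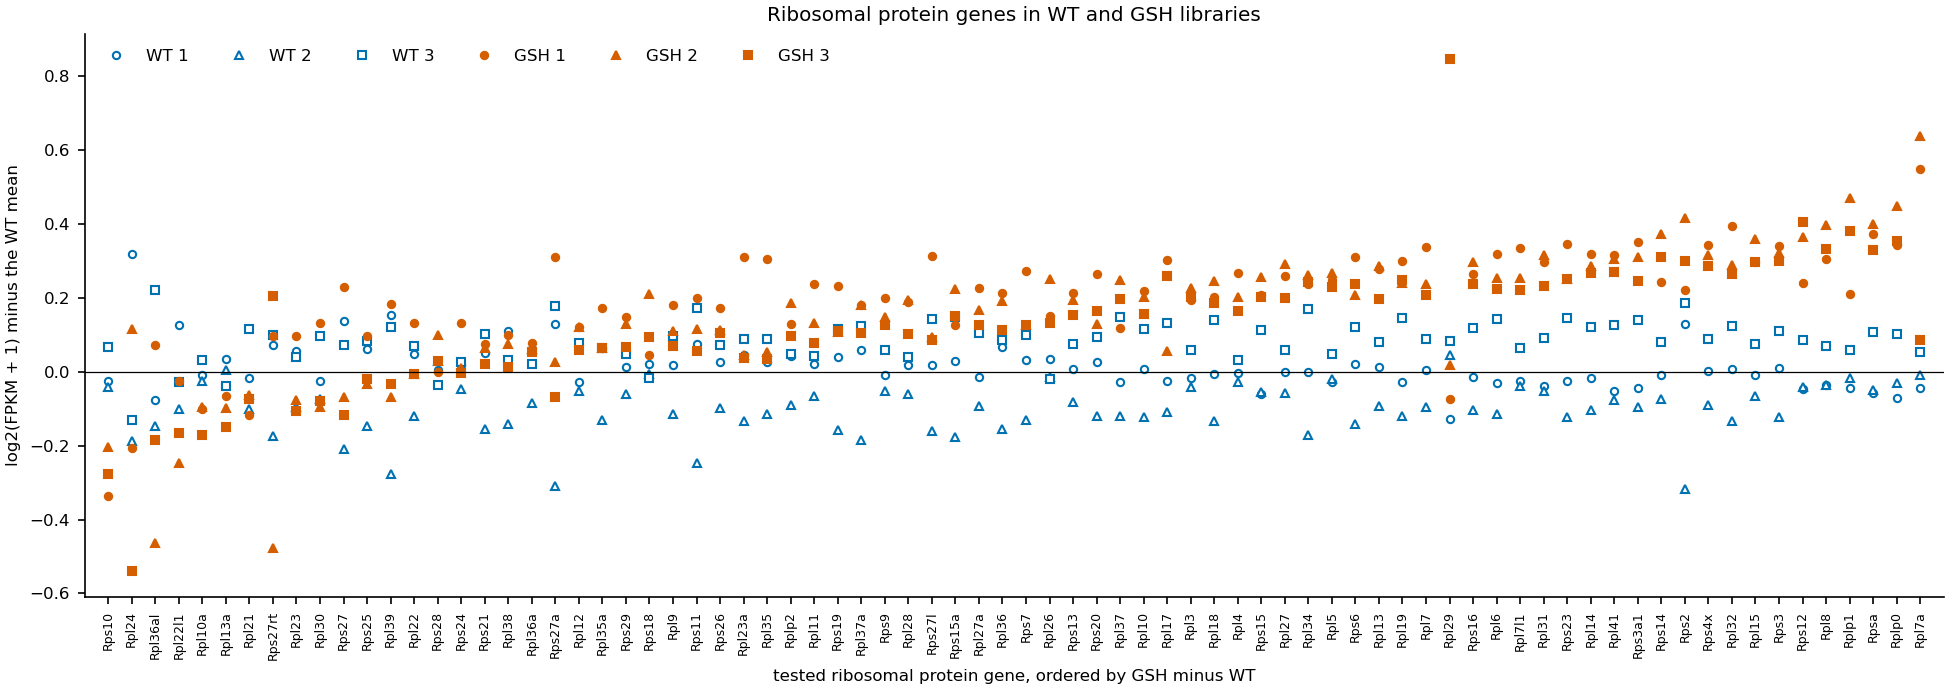
Ribosomal protein genes (78 of the 82 tested) in the 3 WT libraries (open blue symbols) and the 3 GSH libraries (filled orange symbols), as log2(FPKM + 1) minus the WT mean, ordered by GSH minus WT from left to right. The GSH symbols lie above all WT symbols for 46 of these 78 genes, and WT 2 is the lowest WT library for most.

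The WT libraries themselves differed in a common direction. WT 2 was the lowest WT library for 69 of the 82 genes (84.1%, against 32.2% of all tested genes) and WT 3 the highest for 70 (85.4%, against 32.8%). The median over the 82 genes, as log2 distance from the WT mean, was 0.0058 in WT 1, -0.10 in WT 2 and 0.09 in WT 3. In GSH 1 to 3 it was 0.22, 0.19 and 0.14. WT 3, GSH 2 and GSH 3 also held odorant-binding and major urinary protein transcripts, with a sum of 154 to 434 FPKM, against 1.46 to 6.32 FPKM in the other 3 libraries. Within WT 3, GSH 2 and GSH 3 the median log2 difference was 0.08 with 59 of 82 genes higher in GSH. Over all tested genes the median there was 0.018, with 53.7% higher. Within WT 1, WT 2 and GSH 1 the median was 0.27 with 74 of 82 higher, against 0.019 and 53.8% over all tested genes. These within-set values have too few libraries for a test.

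The P stalk of the 60S subunit, which draws elongation factors to the ribosome, held the gene with the highest level per length and some of the largest rises. Rplp1 stood at 2322, 2367 and 2491 FPKM in WT 1 to 3 and at 2768, 3313 and 3117 FPKM in GSH 1 to 3. All GSH libraries were above all WT libraries, with a log2 difference of 0.35 (SE 0.07, adjusted p = 0.0125), a call that ended when no filter on low genes was used (adjusted p = 0.225). Rplp0, the stalk's base on which Rplp1 and Rplp2 pair, went from 722, 743 and 815 FPKM to 963, 1036 and 970 FPKM, a log2 difference of 0.38 (SE 0.06, adjusted p = 0.00433). Its groups did not overlap either. Rplp2 stood at 219 ± 11.8 FPKM in WT and 242 ± 7.65 in GSH (SD, n = 3 each), and Rpl12, at the foot of the stalk, at 131 ± 6.09 and 140 ± 3.59. Neither passed the threshold, with adjusted p of 0.0594 for Rplp2 and 0.107 for Rpl12.

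Rpl5 and Rpl11 bind 5S RNA and, when ribosome assembly fails, hold MDM2 away from p53. Rpl5 stood at 188, 189 and 198 FPKM in WT and at 228, 231 and 225 FPKM in GSH, one of the tightest differences of the set (log2 difference 0.25, SE 0.03, adjusted p = 0.00294). Rpl11 stood at 122, 115 and 124 FPKM in WT and 142, 132 and 127 in GSH. Its groups did not overlap, but it missed the threshold (log2 difference 0.15, SE 0.05, adjusted p = 0.0599).

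Other large rises fell on both subunits. Rpsa, a 40S protein also known as a laminin receptor, went from 335, 337 and 376 FPKM in WT to 452, 461 and 439 FPKM in GSH (log2 difference 0.37, SE 0.05, adjusted p = 0.00386). The GSH mean was 1.29 times the WT mean, without overlap. Rpl8, close to the peptidyl transferase centre of the 60S subunit, went from 432, 432 and 465 FPKM to 547, 583 and 558 FPKM (log2 difference 0.34, SE 0.04, adjusted p = 0.00297), again without overlap. Rps12, Rps3, Rpl15, Rpl32 and the X-linked Rps4x rose by log2 differences of 0.34, 0.32, 0.32, 0.32 and 0.31, with no overlap between the groups for any of them. Without a filter on low genes the call of Rpl32 ended.

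Rpl7a had the largest log2 difference of all, 0.43, and was not called. It stood at 199, 204 and 213 FPKM in WT and at 301, 320 and 218 FPKM in GSH. GSH 3 lay close to the WT libraries and the other 2 far above them, and the SE was 0.14 (adjusted p = 0.052). The 34 rises spanned genes from 30.5 ± 1.24 FPKM in WT for Rpl7l1 to 2393 ± 87.9 FPKM for Rplp1 (SD, n = 3). Across the 82 genes, which share libraries and copies and are not independent, the log2 difference had a Spearman rho of 0.43 with the WT level and of -0.022 with exon length, as a description.

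Rps10, Rpl10a and Rpl13a fell. Rps10, a 40S protein at the beak that is ubiquitinated when ribosomes collide, stood at 17.1, 16.9 and 18.3 FPKM in WT and at 13.6, 15.0 and 14.2 FPKM in GSH (log2 difference -0.27, SE 0.05, adjusted p = 0.00666). Rpl10a, which forms the L1 stalk near the exit of spent transfer RNA, stood at 375, 371 and 386 FPKM in WT and at 352, 353 and 335 FPKM in GSH (log2 difference -0.12, SE 0.03, adjusted p = 0.0303). Rpl13a, also known for silencing inflammatory messages when released from the ribosome, stood at 27.6, 27.0 and 26.2 FPKM in WT and at 25.7, 25.1 and 24.2 FPKM in GSH (log2 difference -0.10, SE 0.03, adjusted p = 0.0491). No GSH library overlapped a WT library for these genes, but the GSH mean was still 0.918 times the WT mean for Rpl10a and 0.928 times for Rpl13a. The Rpl13a call ended when any 1 of the 6 libraries was left out, and the Rpl10a call ended without GSH 2, GSH 3 or any 1 WT library, with adjusted p up to 0.146 for Rpl10a and up to 0.3 for Rpl13a over the alternatives.

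The fall of Rps10 did not hold when reads on copies were counted with the gene. Copies are genes annotated or named as pseudogenes that match a ribosomal protein transcript (at least 90% identity over at least 50% of the copy). Whether a copy is processed was not checked. Such copies numbered 745, and 78 of the 82 tested genes had at least 1. Copies took 13.8% to 14.5% of the reads on genes and copies together in each library. For 7 genes, Rpl26, Rps2, Rpl29, Rps10, Rpl30, Rpl24 and Rpl21, they took more reads than the gene itself in every library. In Rps10 the gene had 866, 791 and 907 reads in WT 1 to 3 and 947, 654 and 606 in GSH 1 to 3. Its copies had 3207, 2703 and 3632 reads in WT and 5497, 3577 and 3480 in GSH, nearly all of them on Rps10-ps2 (2602 to 5266 reads per library), which matches Rps10 at 99.0% of bases. The copies' share was therefore 77.4% to 80.0% in WT and 84.5% to 85.3% in GSH. With these reads added to the gene, Rps10 stood at 82.1 ± 8.69 FPKM in WT and 94.9 ± 2.28 in GSH (SD, n = 3), and the log2 difference was 0.21 with SE 0.07 (adjusted p = 0.0579). The direction turned and the call ended.

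**Figure D2:**
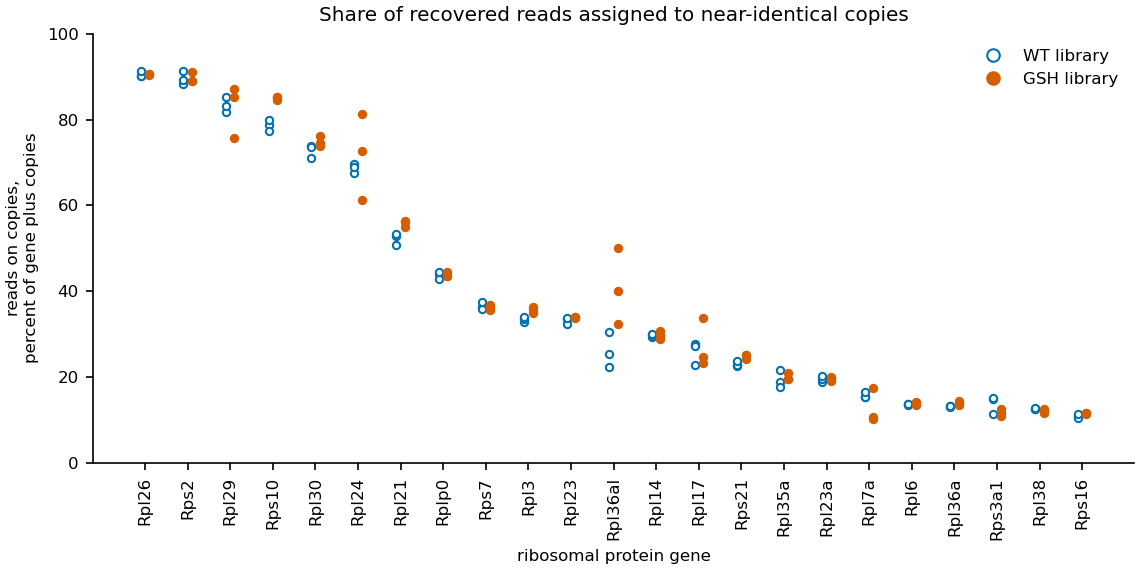
Reads on copies as a percent of reads on gene and copies together, in each WT (open blue circles) and GSH library (filled orange circles). Drawn are the 23 tested ribosomal protein genes whose copies held over 10% of reads in every library. Rpl26 and Rps2 lie near 90% and Rps10 is higher in each GSH library than in each WT library.

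Summing reads over genes and copies, an alternative chosen after seeing the data, left 38 of the 82 genes higher (against 21.0% of 12042 genes tested) and 1 lower, Rpl10a (against 17.0%), with a median log2 difference of 0.19. The 34 rises were all among the 38. Rps2, Rpl29 and Rpl7a were among the 4 added, and the falls of Rps10 and Rpl13a no longer passed. Rpl26, a gene of the 60S subunit, had 1550 to 2590 reads per library of its own and 14191 to 24591 on copies, mostly Gm15772. Its log2 difference was 0.18 alone, a call that ended on rescaling without mitochondrial genes (adjusted p = 0.0553), and 0.19 with copies. Rplp0 had 25030 to 48216 reads of its own and 42.9% to 44.5% of the joint reads on copies, and its log2 difference was 0.38 in either case. Of 241 copies tested as genes of their own, 44 rose, a share near the 20.6% of all tested genes, and 4 fell, against 16.4%. Their median log2 difference was 0.16, against 0.021 over all tested genes. One copy, Rps12-ps3, gave no whole reads and was not added to Rps12.

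**Figure D3:**
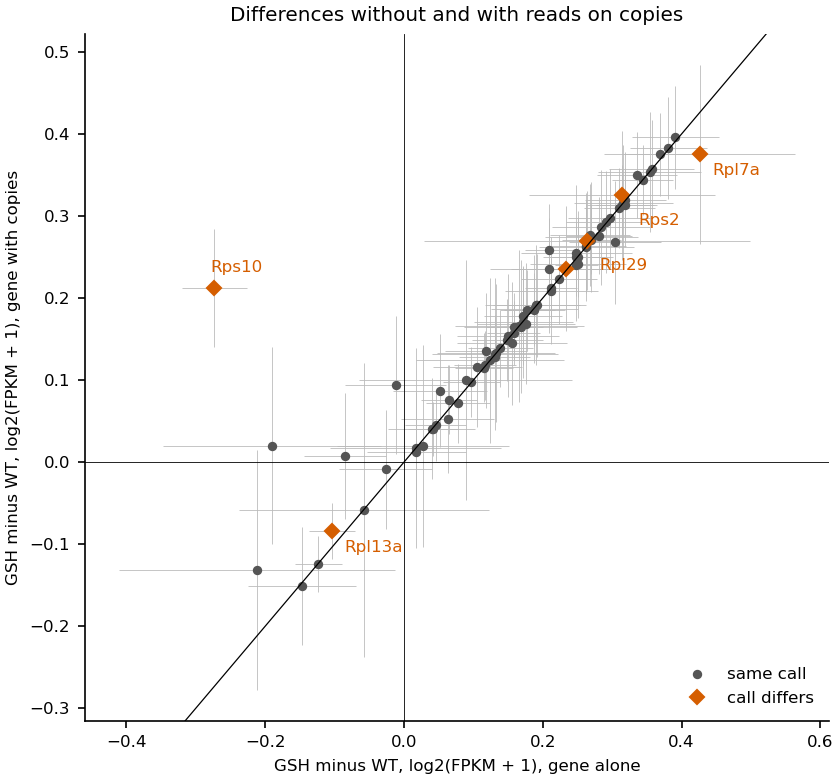
GSH minus WT on the log2(FPKM + 1) scale for each of the 82 tested genes alone (horizontal) and with the reads of its copies (vertical), with standard errors as grey bars and the line of equality. Orange diamonds mark the 6 genes whose call differs, of which Rps10 moves from -0.27 to 0.21.

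Diamond-Blackfan anaemia is an inherited failure of red cell production caused by too little of a single ribosomal protein. A list of 10 tested genes mutated in it was read, which is not complete, so its counts hold for these 10 only. Of the 10, 9 lay above 0, against 54.1% of all tested genes, and the median log2 difference was 0.14. Rpl5 and Rpl26 rose, a share near the 20.6% of all genes, 7 did not pass, and Rps10 fell only while its copies were left out. Rps19, the gene most often mutated in that disease, stood at 46.2, 40.2 and 48.8 FPKM in WT and at 52.9, 48.5 and 48.6 FPKM in GSH, with overlapping groups (log2 difference 0.15, SE 0.07, adjusted p = 0.156). Rps7, Rps24, Rps26, Rpl11 and Rpl35a had log2 differences between 0.046 and 0.18 and did not pass either.

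Rps6, the target of the S6 kinases, rose from 318, 284 and 341 FPKM to 389, 362 and 370 FPKM (log2 difference 0.25, SE 0.07, adjusted p = 0.03). Leaving out WT 1 or any 1 GSH library ended that call. Rps27a, made as a fusion with ubiquitin, varied more between libraries than between groups, at 201, 148 and 208 FPKM in WT and 228, 187 and 175 FPKM in GSH (adjusted p = 0.675). Rpl38 stood at 469 ± 41.5 and 489 ± 15.2 FPKM and the X-linked Rpl10 at 265 ± 22.4 and 303 ± 6.78 FPKM (SD, n = 3 each), with adjusted p of 0.492 and 0.0511. The X-linked Rpl36a and Rpl39 did not pass either, with log2 differences of 0.065 and 0.028.

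Some ribosomal proteins have a second gene, a paralogue that encodes a closely related protein. Rpl22l1 stood at 14.1%, 13.3% and 12.3% of the FPKM of Rpl22 in WT and at 11.8%, 11.0% and 11.7% in GSH. Rps27l, a known p53 target, stood at 51.3%, 58.1% and 58.7% of Rps27 in WT and at 59.4%, 62.7% and 64.5% in GSH. The groups did not overlap for these pairs, and each gave an exact permutation p of 0.1 (two-sided, adjusted 0.2 over 4 pairs), the smallest that 3 against 3 libraries allow. Rpl7l1 held 12.0% to 12.7% of Rpl7 in WT and 12.3% to 12.4% in GSH (exact p = 0.9). Rpl36al held 1.08% to 1.50% of Rpl36a in WT and 0.693% to 1.24% in GSH (exact p = 0.3), on 31 to 90 reads per library. Rpl7l1 rose together with its parent, by a log2 difference of 0.27 (adjusted p = 0.0051) against 0.26 for Rpl7, whose call ended without a filter (adjusted p = 0.0506). Rps27rt, a retrogene of Rps27, stood at 56.1 ± 5.75 FPKM in WT and 54.8 ± 13.1 in GSH (SD, n = 3; adjusted p = 0.819). Rpl3l, best known from muscle, and Rpl39l, from testis, had at most 22 reads and 1 read in any of these libraries.

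The rest of the translation machinery was read from lists chosen with earlier results known, to be set against 20.6% of all genes higher, 16.4% lower and a median of 0.021. Of 9 genes listed for translation elongation 7 rose and none fell, with a median log2 difference of 0.24. That list includes a kinase and other genes that are not elongation factors themselves. Eef1a1, which brings aminoacyl transfer RNA to the ribosome, rose from 2613 ± 111 to 3494 ± 108 FPKM (adjusted p = 0.00258), and Eef2, which moves the ribosome along, from 1084 ± 31.9 to 1416 ± 65.9 FPKM (adjusted p = 0.00271). Eif5a rose by a log2 difference of 0.36 and Eef1g by 0.25. Of 18 other genes whose messages are known to begin with a TOP tract, which share members with the elongation list, 13 rose and none fell. These 13 included the initiation factor subunits Eif3f and Eif3h, with log2 differences of 0.30 and 0.28. Rack1, a scaffold on the 40S head that the symbol rule leaves out, rose from 280 ± 17.1 to 358 ± 18.0 FPKM (adjusted p = 0.00544), while Fau, whose product is fused to a ubiquitin-like protein, did not pass (480 ± 17.0 FPKM in GSH against 453 ± 37.3 in WT).

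Of 27 genes for ribosome assembly and export 13 rose and 2 fell (median log2 difference 0.12). The rises included Pes1, Rrs1, Grwd1 and Eif6, by 0.26, 0.22, 0.26 and 0.28. Of 24 RNA polymerase I and rRNA processing genes 12 rose and 3 fell (median 0.098), among them Fbl, the rRNA methyltransferase, from 35.5 ± 0.65 to 43.0 ± 0.563 FPKM. In the mTORC1 pathway and its TOP regulators 5 of 18 rose and 2 fell (median 0.048), close to the shares over all genes, so nothing is read from that list as a whole. There Eif4ebp1, the translation repressor that mTORC1 inactivates, rose by 0.33 and Rps6kb2, an S6 kinase gene, fell by 0.39, while Larp1 rose by 0.13. In the checkpoint that links free ribosomal proteins to MDM2 and p53, 2 of 11 rose and 3 fell (median -0.020), again close to the shares over all genes. These included Trp53, from 35.2 ± 0.48 to 25.4 ± 0.332 FPKM (log2 difference -0.46, adjusted p = 0.00112), Mdm2 and Mdm4, which fell by 0.16 each, and Npm1, which rose by 0.15. Values with ± are means and SD of 3 libraries.

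The second comparison sets 3 Cas9 libraries beside the only Ctrl library used, Ctrl 3. The ribosomal protein genes lay above Ctrl 3 in nearly all Cas9 libraries, and no gene passed the test. All 3 Cas9 libraries were above Ctrl 3 for 74 of the 82 tested genes, against 20.1% of the 11407 genes tested, and all 3 were below for 1, Rpl21, against 22.5%. The median log2 difference was 0.28, against -0.011 over all genes. By limma with Benjamini-Hochberg adjustment 0 of the 82 were called (0.0% of all genes), and at an unadjusted p under 0.05 there were again 0 of 82 and 210 of 11407 genes, with the lowest p of the 82 at 0.0652. Voom on recovered reads also called 0. The spread in that fit comes from the Cas9 libraries alone (2 degrees of freedom), and Ctrl 3 is assumed to vary as they do.

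**Figure D4:**
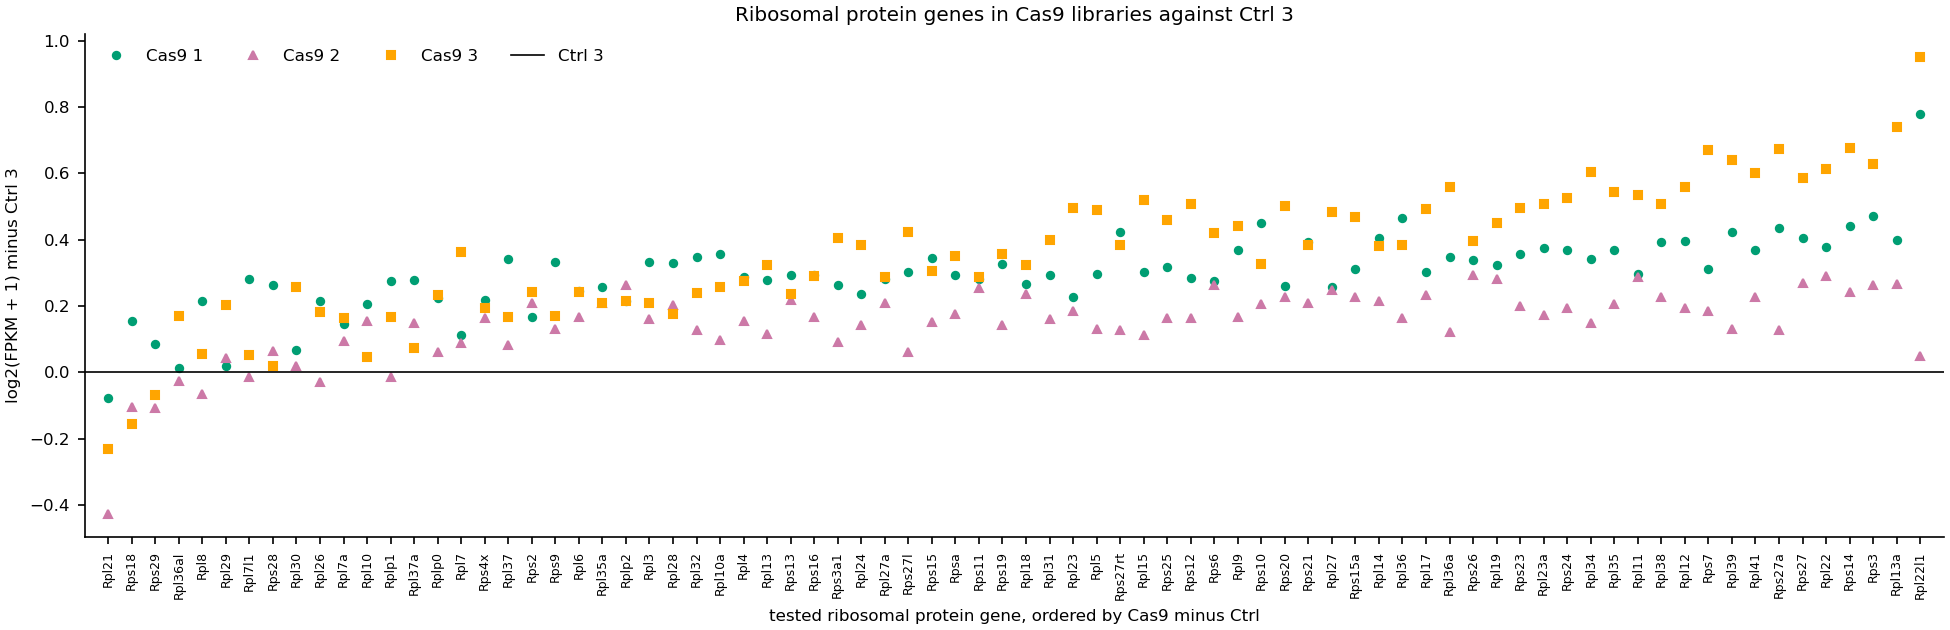
Ribosomal protein genes (78 of the 82 tested) in Cas9 1 (green circles), Cas9 2 (pink triangles) and Cas9 3 (orange squares). Values are log2(FPKM + 1) minus Ctrl 3 (line at 0), ordered by the Cas9 mean minus Ctrl 3. Cas9 2 lies closest to the line for most genes, and Rpl21 is below it in all 3 libraries.

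The genes moved together in each Cas9 library. Their median distance from Ctrl 3 was 0.30 in Cas9 1, 0.16 in Cas9 2 and 0.37 in Cas9 3 on the log2 scale, and Cas9 2 was the lowest Cas9 library for 74 of 82 genes (90.2%, against 31.5% of all tested genes). They took 5.82% of recovered reads in Ctrl 3 and 7.20%, 6.53% and 7.56% in Cas9 1 to 3. Leukocyte transcripts also differed between these libraries, at a sum of 3440 FPKM in Ctrl 3 and 4028, 3008 and 2233 FPKM in Cas9 1 to 3, with Ms4a1 at 0 in Ctrl 3 and no listed marker at 0 in the Cas9 libraries. The largest single part of that sum in each library was Lyz2, a myeloid gene, at 2536 FPKM in Ctrl 3 and 3048, 2001 and 1035 FPKM in Cas9 1 to 3. The T and cytotoxic lymphocyte markers Cd3e, Cd3g, Cd8a and Nkg7 were above Ctrl 3 in every Cas9 library, whereas Cd79a, a B cell marker, was above it in Cas9 1 and Cas9 3 and below it in Cas9 2. Cd3e stood at 0.958 FPKM in Ctrl 3 and 2.92, 3.11 and 1.89 FPKM in Cas9 1 to 3, Cd8a at 1.69 and at 4.19, 4.62 and 2.66, and Nkg7 at 2.67 and at 10.3, 7.72 and 4.05. The sum over 8 fibroblast markers was 1103 FPKM in Ctrl 3 and 542, 1657 and 524 FPKM in Cas9 1 to 3, and over 6 adipocyte markers it was 76.9 FPKM and 56.7, 40.8 and 33.9 FPKM. The part of these cells in the difference was not tested, and in such bulk samples a change in the number of cells of a type and a change of RNA per cell cannot be told apart.

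Rpl22l1 was farthest from Ctrl 3, at 63.1 FPKM there and 109, 65.3 and 123 FPKM in Cas9 1 to 3. Cas9 2 stayed close to Ctrl 3 while the other 2 were far above it (log2 difference 0.59, SE 0.38). As a percent of Rpl22 it stood at 37.3% in Ctrl 3 and at 49.5%, 31.5% and 47.4%. Rpl13a, which fell slightly in GSH libraries, stood at 1064 FPKM in Ctrl 3 and at 1402, 1280 and 1776 FPKM in Cas9 libraries (log2 difference 0.47, SE 0.24), and Rps3 at 595 FPKM and at 826, 715 and 921 FPKM (log2 difference 0.46, SE 0.20). Both were above Ctrl 3 in every Cas9 library, within a spread that left unadjusted p at 0.108 and 0.071. Of the P stalk, Rplp1 stood at 2741 FPKM in Ctrl 3 and at 3319, 2715 and 3080 FPKM, on both sides of Ctrl 3. Rpl21 was listed at 12.6 FPKM in Ctrl 3 and at 11.9, 9.12 and 10.6 FPKM in Cas9 libraries (log2 difference -0.24, SE 0.19). The median over 49 genes of the 60S subunit was 0.25 and over 33 of the 40S subunit 0.31.

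Although the proteins are needed in near equal amounts, FPKM spanned a wide range. These values divide by the merged length of all annotated exons, which need not be the length of the message. Rpl36, with 383 bases and 5795 to 11105 reads per library, stood at 831 FPKM in WT. Rps24, with 6256 bases and 8561 to 15327 reads, stood at 74.0 FPKM. The part of exon length in the order below was not tested. In WT libraries the highest means were Rplp1 with 2393 FPKM, Rpl41 with 1216, Rps15 with 977, Rpl36 with 831 and Rplp0 with 760. Rpl36 (SD 74.4) and Rplp0 (SD 48.5) were not separated beyond their spread. The lowest tested genes were Rpl24 with 1.86 FPKM, Rpl36al with 2.06, Rpl21 with 5.10, Rpl29 with 8.64 and Rpl22l1 with 9.47. Rpl24 (SD 0.572) and Rpl36al (SD 0.429) were likewise not separated, nor were Rpl29 (SD 0.735) and Rpl22l1 (SD 0.861). In all, 58 of the 84 genes were at or above 100 FPKM in WT. Rpl24, a 60S protein that bridges to the small subunit, was counted with only 18 to 57 reads per library, while its copies took 61.2% to 81.4% of the joint reads.

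Set beside the other table, which was normalised separately, the order of the genes was partly shared. The median over the 82 genes was 195 FPKM in WT and 683 FPKM in Ctrl 3. As shares of recovered reads the genes took 3.16% to 3.55% in WT and 5.82% in Ctrl 3, a smaller gap. The other table lists no mitochondrial genes, and the gene lengths behind its FPKM are not known. Across the 82 genes log2 levels had a Pearson r of 0.69 and levels a Spearman rho of 0.65. Some genes stood far from the rest. Rpl24 was at 1.86 FPKM in WT and 542 in Ctrl 3, Rpl36al at 2.06 and 216, Rps10 at 17.4 and 1055, and Rpl13a at 27.0 and 1064. With the reads of copies added the WT values became 5.93 for Rpl24, 2.78 for Rpl36al, 82.1 for Rps10 and 27.7 for Rpl13a, all still far below Ctrl 3. Without copies, Rps27l (69.0 FPKM in WT and 22.5 in Ctrl 3) and Rpl36 (831 and 531) were the genes farthest below the WT level in Ctrl 3. With copies added to the WT values alone, Rps2 (443 and 114) and Rpl26 (562 and 149) were farther below it than Rps27l. No copies were added in Ctrl 3, so these pairs set unlike measures side by side. Of the 745 copies, 49 are listed in the Ctrl and Cas9 table by symbol, and what these differences between the tables come from was not tested.

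**Figure D5:**
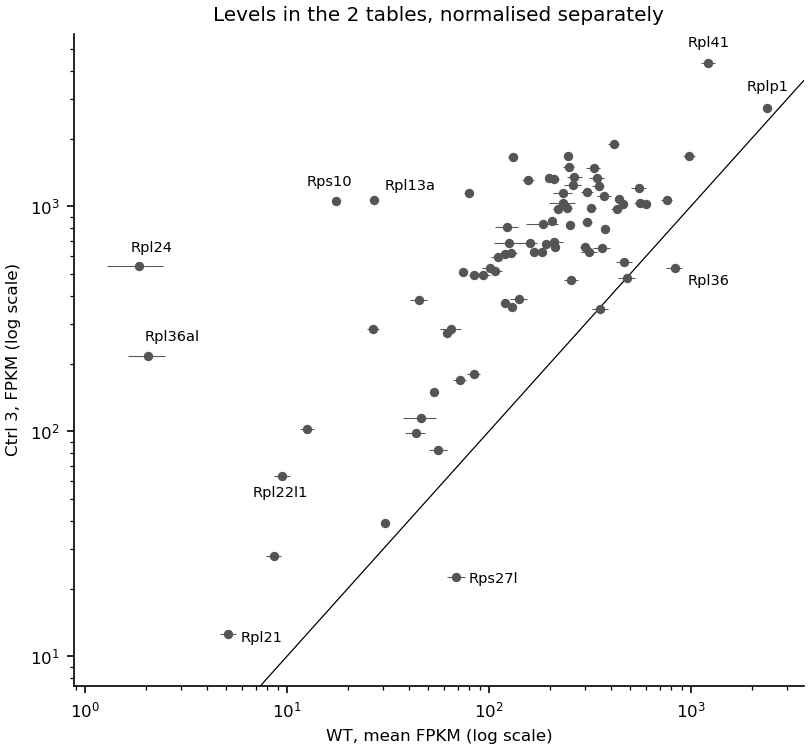
Mean FPKM of 3 WT libraries (horizontal, bars are SD) against FPKM in Ctrl 3 (vertical) for the 82 tested ribosomal protein genes, on log scales with the line of equality. Rpl24, Rpl36al, Rps10 and Rpl13a lie farthest above the line, and Rps27l and Rpl36 lie farthest below it. The 2 tables were normalised separately.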

How the data were processed

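RNA was sequenced from samples labelled 4T1 (NEBNext Ultra RNA kit and Trizol, per the labels' protocols). Tools listed without roles in the submitters' processing notes are HTSeq 0.6.0, HISAT2 2 and Bowtie2 2.2.3, with the build mm8. Yet 96.6% of WT and GSH genes gave whole reads with exon lengths of GENCODE M21, which is not an mm8 annotation. The stated build thus goes against these values. The deposited values were taken as FPKM from the values themselves, since neither labels nor headers state a unit, and the authors' library normalization was kept. Whether replicates are separate cultures is not given in the sources used here, and p-values then describe only how these samples vary, perhaps for technical reasons. Ensembl identifiers were matched to symbols for 30190 of 30803 genes.

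The fit was limma 3.58.1 (R 4.3.3; lmFit, eBayes with trend) on log2(FPKM + 1), over genes with a mean of at least 1 FPKM, with Benjamini-Hochberg adjustment and a threshold of 0.05. All log2 differences are on that scale, which understates low genes, while ratios of GSH to WT means are of plain FPKM. Whole reads were recovered for 96.6% of WT and GSH genes (within 0.15 read, GENCODE M21 exon lengths) and 99.98% of Ctrl and Cas9 genes above 0 in at least 3 libraries (within 0.01), where a factor common to all libraries cannot be seen. These served for depth, voom and copies, the latter found with blastn 2.17.0+ against member transcripts. Genes named were the 10 largest rises and all falls, the 5 highest and 5 lowest levels, genes with a listed role, and up to 4 genes of smallest p per related list; others are named for a copy share, a changed call or a level apart, chosen after their values were seen. Some genes that the rule names are not reported here, though counts and medians include them. Ribosomal protein genes and lists were chosen with earlier results of these data known. Intervals and p-values cover these libraries only.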

Additional observations from a re-analysis of the deposited data

How the results depend on the processing

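For GSH against WT, the median over the ribosomal protein genes stayed above 0 under all 17 alternatives. It was 0.114 rescaled without mitochondrial genes, 0.237 rescaled without ribosomal protein genes, and 0.129 to 0.227 when 1 library was left out. Genes called higher numbered 19 with no filter, all of them among the 34, and 53 rescaled without ribosomal protein genes. Over all genes 1697 and 3635 were called higher in these fits, against 2533 in the main fit. With 1 library left out the ribosomal protein genes called higher numbered 23 to 42 (23 without WT 1, 42 without WT 3). Over all genes 1663 were called higher without WT 1 and 2089 without WT 3. Of the 34 rises, 18 passed under every alternative, and none of the 3 falls did. Genes called lower numbered 1 with no filter, rescaled without ribosomal protein genes, with a term for WT 3, GSH 2 and GSH 3, or summed with copies, and 1 to 2 with 1 library left out. Rps10 turned to 0.212 when summed with its copies. Over all genes 4547 were called, 3086 with no filter and 2998 without WT 1.

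With the replicate block 33 genes were higher, 31 of them among the 34, and 3 lower. Same-numbered libraries had deviations correlated at 0.479, -0.107 and 0.209, so the numbers were not taken to pair them. No paired analysis was possible because Cas9 and Ctrl share 1 number only. The difference of Rpl7l1 to Rpl7 was 0.007 and ran from -0.008 to 0.035 with 1 library left out (-0.008 without WT 1, -0.006 without WT 3). Cas9 against Ctrl gave 0 calls over all genes in every fit, which says nothing of stability. The median over the ribosomal protein genes there, 0.276, was 0.242 to 0.289 under the other settings and 0.239 to 0.339 with 1 Cas9 library left out. Rescaling without mitochondrial genes was not run there, as that table lists none. Genes such as Rpl24 and Rpl36al, with under 100 reads, and genes sharing reads with copies are least certain.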
